A study of Mus musculus with 9 samples.

Results

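The 10 genes described here encode the actin of smooth muscle and proteins that work on actin filaments in contractile cells. They were chosen because *Acta2*, smooth muscle alpha-actin, was far lower in mouse squamous cell carcinoma (SCC) cells with active focal adhesion kinase (FAK), and the other 9 were chosen by their function to ask whether its fall was shared. They are *Acta2*, *Actg2*, *Tagln*, *Tagln2*, *Cnn1*, *Cnn2*, *Myl9*, *Tpm1*, *Tpm2* and *Myh11*, 10 of the 19044 gene identifiers measured, and all 10 were in the table. The values of *Acta2* in FAK-WT-expressing cells are therefore given as a description, with no test.

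RNA was sequenced from 3 SCC cell lines, with 3 biological replicates of each. The SCC cells came from FVB mice with floxed *FAK* alleles and CreER driven by the keratin 14 promoter, in which tumours were raised by DMBA and TPA. *FAK* was deleted in culture with 4-hydroxytamoxifen, and FAK-WT or FAK-kd, a kinase-deficient form, was put back by retrovirus into a *FAK*-/- clone under hygromycin selection. All 3 groups thus carry the same deletion and descend from 1 clone, and differences between the lines that arose during their derivation cannot be told apart from effects of the FAK protein they express.

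Gene values are given as CPM, counts scaled to library size with TMM factors, and differences as log2 ratios with their standard error (SE) from edgeR's quasi-likelihood test over all 19044 identifiers. P-values are adjusted by the Benjamini–Hochberg method over all of them. A gene passed the test at an adjusted p of 0.05 or below, and was past the fold threshold when its log2 ratio was also at least 1 in size. Mean values are given ± SD over the 3 replicates of a group.

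The FAK-WT replicate 1 library held 779755 counts, 2.31% of the median of the others, and the other 8 libraries held between 25304994 and 37264636. In that library 3 counts, used here as the detection floor, corresponded to 3.78 CPM. *Ptk2*, which encodes FAK, was at 19.6 to 23.5 CPM in *FAK*-/- cells, 213 to 216 CPM in FAK-WT cells and 155 to 176 CPM in FAK-kd cells. Of the 5 listed keratinocyte markers in the table, 4 were almost absent. *Krt5* and *Krt14*, the keratins of basal keratinocytes, were at or below 0.12 and 0.24 CPM in every library, and *Cdh1* and *Dsp* were near 0. *Itga6*, the alpha6 integrin subunit, was at 169 to 297 CPM in all libraries and was lower with FAK-WT, both against *FAK*-/- cells (log2 ratio -0.75, adjusted p = 7.7e-07) and against FAK-kd cells (log2 ratio -0.61, adjusted p = 7.4e-06).

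Smooth muscle actin assembles into the filaments of smooth muscle and of activated fibroblasts, where myosin pulls on them. Transgelins and calponins bind along actin filaments, and tropomyosins coil around them and control the access of myosin. Many of these genes are classic targets of serum response factor (SRF), which binds a short element called the CArG box. Its partners of the myocardin-related (MRTF) family are held inactive by monomeric actin and released when actin polymerizes, while the ternary complex factors (TCF) link SRF to growth factor signalling. FAK is a tyrosine kinase of focal adhesions, the sites where actin filaments attach to integrins.

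To show where the members carry the element that SRF binds, promoter windows from 250 bases before to 50 bases after the transcription start were taken from RefSeq (GRCm38.p6). Windows were found for 7 of the 10 members. The CArG box was searched as CC, 6 bases of A or T and GG, on both strands, and it occurred in 2 of the 7 windows, those of *Cnn2* and *Myl9*, and in 1.63% of all 32851 windows. Allowing exactly 1 G or C among the 6 central bases, a form added after the data were seen, gave matches in *Acta2* and *Myl9*, and in 8.50% of all windows. Windows of *Actg1*, *Fhl1*, *Csrp1* and *Synpo2*, SRF targets described further on, were searched for comparison, and no window was found for *Actb*. *Actg1* and *Fhl1* are shown because they held a match. The windows of *Csrp1* and *Synpo2*, and another window of *Fhl1*, held no CArG match in either form. Each sequence below holds 30 bases on the gene's strand, with the CArG box in capitals.
Acta2, chr19:34255438-34255467, minus strand, box at bases -84 to -75: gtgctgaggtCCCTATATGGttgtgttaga
Acta2, chr19:34255388-34255417, minus strand, box at bases -34 to -25: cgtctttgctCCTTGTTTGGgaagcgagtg
Cnn2, chr10:79988534-79988563, plus strand, box at bases -56 to -47: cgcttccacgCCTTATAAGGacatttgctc
Myl9, chr2:156775293-156775322, plus strand, box at bases -161 to -152: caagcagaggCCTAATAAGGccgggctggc
Myl9, chr2:156775355-156775384, plus strand, box at bases -99 to -90: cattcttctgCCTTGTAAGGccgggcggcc
Actg1, chr11:120348566-120348595, minus strand, box at bases -90 to -81: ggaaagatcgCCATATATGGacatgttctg
Fhl1, chrX:56779571-56779600, plus strand, box at bases -102 to -93: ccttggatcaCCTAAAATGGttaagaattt

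Both *Acta2* boxes and the second *Myl9* box have 1 G or C in the centre, and the other 4 sequences have A or T only. The GENCODE transcript Acta2-201 starts further upstream than the RefSeq transcript, and both *Acta2* sequences lie within an exon of it. The MCAT element (CATTCC, on either strand), bound by TEAD factors, was in the windows of *Acta2*, *Tagln2* and *Tpm1*, 3 of 7, against 14.7% of all windows. The AP-1 site TGANTCA was in 0 of 7, against 7.81%. A match describes these letters only, and binding was not measured.

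**Figure D1:**
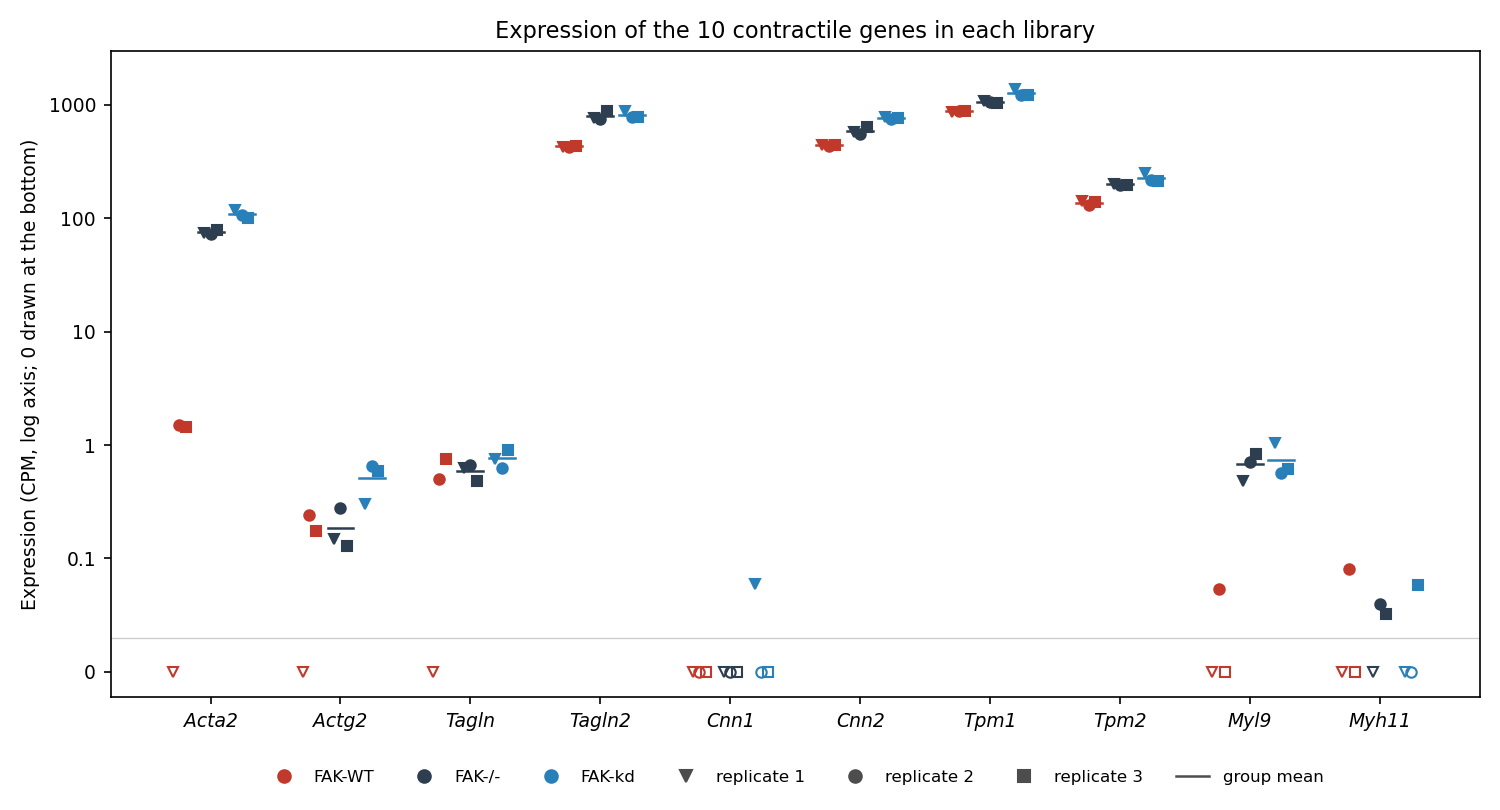
Level of each member in every library, as CPM on a log axis, for FAK-WT, *FAK*-/- (FAK-null) and FAK-kd cells. Each point is 1 library, open at the bottom where it had 0 counts, and each bar is the mean of a group in which every library had counts. *Acta2* lay at 0 to 1.49 CPM in FAK-WT cells against 72.2 to 118 CPM in the other 6 libraries, whereas *Tagln2*, *Cnn2*, *Tpm1* and *Tpm2* were at 131 CPM or more in all 9.

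The members fell into 2 ranges of abundance. Per kilobase of median transcript length, the order in *FAK*-/- cells was *Tagln2* (1121 ± 99.7 CPM per kb), *Tpm1* (649 ± 12.6), *Cnn2* (348 ± 26.0), *Tpm2* (122 ± 0.515) and *Acta2* (52.4 ± 2.38), with no overlap between neighbours. This spread covers replicates only and not the choice of transcript length. Without division by length, *Tpm1* (1066 ± 20.6 CPM) was above *Tagln2* (802 ± 71.4 CPM) in these cells. *Tagln* (0.604 ± 0.102 CPM per kb) and *Myl9* (0.597 ± 0.159 CPM per kb) followed and did not differ beyond their spread. *Actg2* was at 0.239 ± 0.103 CPM per kb, and *Myh11* and *Cnn1* were at or near 0. In FAK-kd cells the first 5 kept this order, with *Acta2* at 75.6 ± 6.29 CPM per kb. In FAK-WT cells *Acta2* stood at 0.683 ± 0.592 CPM per kb and *Tagln* at 0.426 ± 0.389 CPM per kb, both with 0 counts in replicate 1. In FAK-WT replicates 2 and 3 alone, *Acta2* was at 1.04 and 1.01 CPM per kb and *Tagln* at 0.515 and 0.763 CPM per kb, without overlap.

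The first question was whether the other members were lower together with *Acta2* when FAK-WT was expressed. *Acta2* (ENSMUSG00000035783, chr19:34241090-34255590, minus strand) was at 73.9, 72.2 and 78.7 CPM in *FAK*-/- replicates 1, 2 and 3 and at 118, 106 and 100.3 CPM in the FAK-kd replicates. In the FAK-WT libraries it was at 0, 1.49 and 1.44 CPM, from 0, 56 and 50 counts. The FAK-WT libraries lay far below the other 6, and the shallow replicate 1 would hold 1.17 counts at the level of replicates 2 and 3, so its 0 was not distinguishable from that level. The 106 FAK-WT counts together gave 1.45 CPM (95% exact Poisson interval 1.19 to 1.76, counting error only). The level in FAK-WT cells was 51.7-fold below that in *FAK*-/- cells (log2 ratio -5.69, SE 0.14) and 74.7-fold below that in FAK-kd cells (log2 ratio -6.22, SE 0.14). In these cultures, fewer cells that express a gene and less of its RNA per cell cannot be told apart.

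Against *FAK*-/- cells, 5 of the other 9 members were lower in FAK-WT cells at an adjusted p of 0.05 or below, none was higher and 4 did not pass. Of all identifiers, 9.96% passed this test as lower and 8.01% as higher. The 5 were *Tagln2*, *Cnn2*, *Tpm1*, *Tpm2* and *Myl9*, and in each of them all 3 FAK-WT libraries lay below all 3 *FAK*-/- libraries, a separation seen in 17.5% of identifiers. Only *Myl9* was also past the fold threshold, which 3.06% of identifiers passed as lower and 2.32% as higher. The median log2 ratio of the 9 was -0.28, or -0.41 without *Cnn1* and *Myh11*, which were at or under 3 counts in both groups, beside 0 over all identifiers. The decrease in the abundant members was therefore 1.22- to 1.86-fold, beside 51.7-fold in *Acta2*.

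Against FAK-kd cells, the same 5 members were lower, again with 4 that did not pass, beside 10.2% of all identifiers that were lower and 7.58% that were higher. *Myl9* was past the fold threshold, which 2.89% of identifiers passed as lower and 2.37% as higher. The median log2 ratio of the 9 was -0.80. In 6 of the 9 members, the 5 and *Actg2*, all FAK-WT libraries lay below all FAK-kd libraries, as in 19.7% of identifiers. In *Myl9* and *Actg2*, FAK-WT replicate 1 had 0 counts. There 1 count is 1.26 CPM, above every FAK-kd value of these genes, so that library adds little to the separation. Both comparisons use the same FAK-WT libraries.

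**Figure D2:**
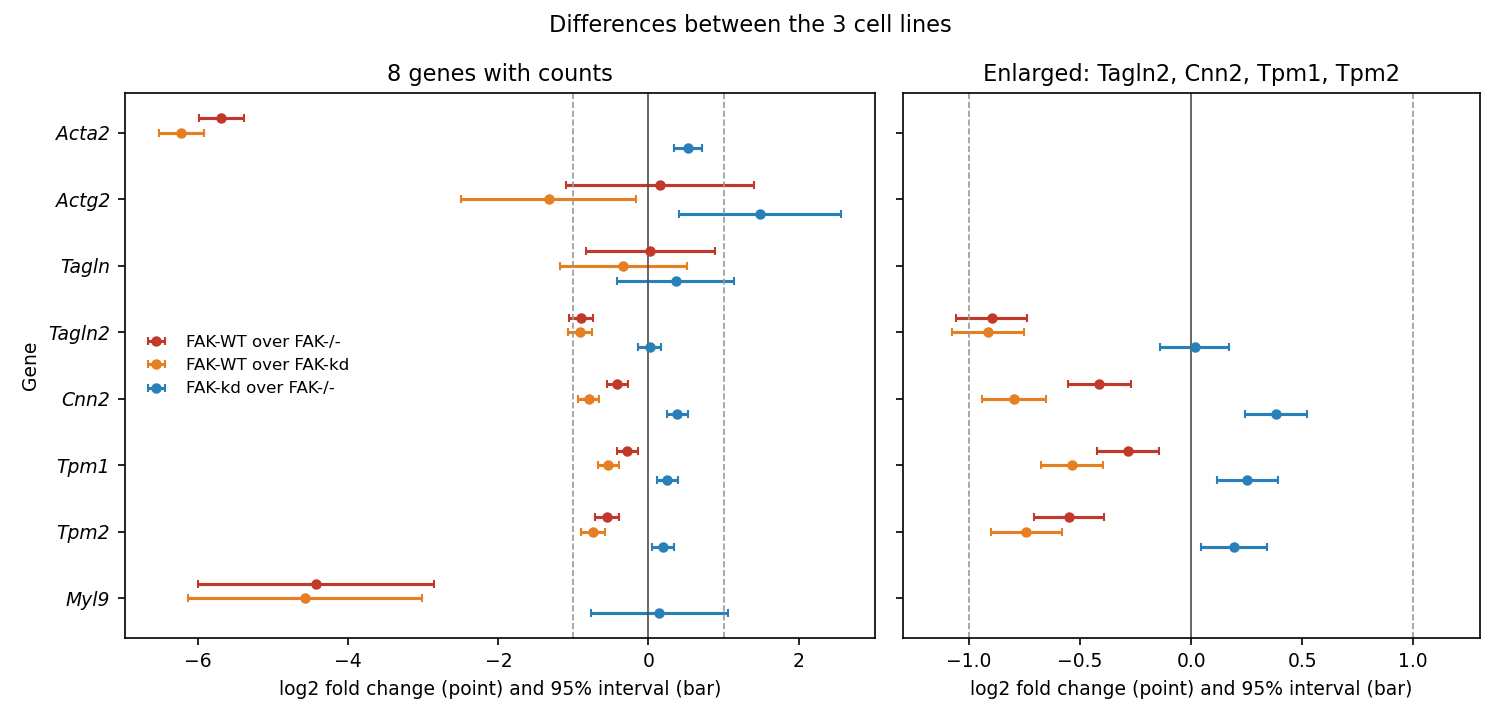
Log2 ratio (point) of the 8 members with enough counts and its 95% confidence interval (bar), for FAK-WT over *FAK*-/-, FAK-WT over FAK-kd and FAK-kd over *FAK*-/- cells, with lines at 0 and at ratios of 1 and -1 and the 4 abundant genes enlarged on the right. *Acta2* stood at -5.69 and -6.22 in the FAK-WT comparisons, where it was chosen for this value, and the abundant members stood between -0.28 and -0.92.

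Of the actin-binding members, *Tagln2* (chr1:172500047-172507380, plus strand), the broadly expressed transgelin, had the largest decrease among the abundant genes. It was at 428, 429 and 433 CPM in FAK-WT cells, at 765, 757 and 885 CPM in *FAK*-/- cells and at 874, 779 and 782 CPM in FAK-kd cells. FAK-WT cells had the lowest values and the other 2 groups overlapped. The log2 ratio was -0.90 (SE 0.08, adjusted p = 5.8e-07) against *FAK*-/- and -0.92 (SE 0.08, adjusted p = 5.3e-07) against FAK-kd cells.

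*Cnn2* (chr10:79988584-79996062, plus strand), a calponin of many non-muscle cells, was graded over the 3 lines. It was at 444, 436 and 445 CPM in FAK-WT cells, at 577, 551 and 637 CPM in *FAK*-/- cells and at 780.2, 755 and 767 CPM in FAK-kd cells. No group overlapped another. The log2 ratio was -0.41 (SE 0.07, adjusted p = 0.000382) against *FAK*-/- and -0.80 (SE 0.07, adjusted p = 6.3e-07) against FAK-kd cells.

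The tropomyosins were also lowest in FAK-WT cells. *Tpm1* (chr9:67022590-67049406, minus strand) was at 866, 883 and 874 CPM in FAK-WT cells, at 1086, 1066 and 1045 CPM in *FAK*-/- cells and at 1384, 1209 and 1218 CPM in FAK-kd cells. Its log2 ratio was -0.28 (SE 0.07, adjusted p = 0.00609) against *FAK*-/- and -0.54 (SE 0.07, adjusted p = 2.6e-05) against FAK-kd cells. *Tpm1* has 16 coding transcripts in the annotation, and these gene counts do not separate its muscle and non-muscle isoforms.

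*Tpm2* (chr4:43514711-43523765, minus strand) was at 141, 131 and 138 CPM in FAK-WT cells, at 199, 198 and 198 CPM in *FAK*-/- cells and at 249, 218 and 213 CPM in FAK-kd cells. All FAK-WT libraries were below the other 6. The log2 ratio was -0.55 (SE 0.07, adjusted p = 7.8e-05) against *FAK*-/- and -0.74 (SE 0.07, adjusted p = 4.1e-06) against FAK-kd cells.

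*Myl9* (chr2:156775420-156781658, plus strand), a regulatory light chain of smooth muscle and non-muscle myosin, had few counts in every line. Its counts were 0, 2 and 0 in the FAK-WT replicates, 16, 18 and 26 in the *FAK*-/- replicates and 35, 19 and 21 in the FAK-kd replicates, at most 1.05 CPM. All 3 FAK-WT values were below all others, although a library of the depth of replicate 1 could not have shown these levels. From the pooled counts, *Myl9* was 24.4-fold lower than in *FAK*-/- cells (95% counting interval 6.46 to 206) and 27.2-fold lower than in FAK-kd cells (7.26 to 228). The edgeR fit gave a 21.5-fold decrease against *FAK*-/- cells (adjusted p = 0.000518) and a 23.8-fold decrease against FAK-kd cells (adjusted p = 0.000342). Both FAK-WT counts came from replicate 2, and the fitted log2 ratio to *FAK*-/- cells, -4.43, was -3.58 without FAK-WT replicate 3 and -7.26 without FAK-WT replicate 2, when no FAK-WT count was left, so the size of the decrease is poorly fixed. The ratio to FAK-kd cells, -4.57, went to -3.72 and -7.40 in the same way. *Myl9* passed the test in each of these fits.

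The members that are most restricted to smooth muscle were barely detected. *Cnn1*, calponin 1, had 0 counts in 8 libraries and 2 in FAK-kd replicate 1. *Myh11*, the smooth muscle myosin heavy chain, had at most 3 counts in any library. Both were at or under 3 pooled counts in every group, so no fold was computed.

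*Actg2* (chr6:83512905-83536265, minus strand), the gamma-actin of enteric smooth muscle, had 0, 9 and 6 counts in FAK-WT cells, 5, 7 and 4 in *FAK*-/- cells and 10, 22 and 20 in FAK-kd cells. Its log2 ratio was 0.16 (SE 0.59, 95% interval -1.10 to 1.41, adjusted p = 0.926) for FAK-WT over *FAK*-/- cells and -1.33 (SE 0.55, adjusted p = 0.117) for FAK-WT over FAK-kd cells. The decrease of *Acta2* against *FAK*-/- cells, 51.7-fold, lies outside that interval.

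*Tagln* (chr9:45929619-45936058, minus strand), SM22-alpha and a common marker beside *Acta2*, had 0, 19 and 26 counts in FAK-WT cells, 21, 17 and 15 in *FAK*-/- cells and 25, 21 and 31 in FAK-kd cells. The groups overlapped. Its log2 ratio was 0.03 (SE 0.40, 95% interval -0.83 to 0.88) for FAK-WT over *FAK*-/- cells and -0.34 (SE 0.40, 95% interval -1.18 to 0.51) for FAK-WT over FAK-kd cells. *Tagln* shares 62.2% of its 31-base words with other genes, 58.2% with the antisense gene *Gm48529*, and the library kit does not mark strand, so its counts are uncertain. The other members shared at most 1.39% of their words with other genes.

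FAK-kd and *FAK*-/- cells were compared next, a comparison the choice of members did not use. *Acta2* was higher in FAK-kd cells in all 3 replicates (log2 ratio 0.53, SE 0.09, adjusted p = 0.00145), a 1.44-fold difference beside the 74.7-fold range between FAK-kd and FAK-WT cells. *Cnn2* (log2 ratio 0.38, SE 0.07, adjusted p = 0.00161) and *Tpm1* (log2 ratio 0.25, SE 0.06, adjusted p = 0.0244) were also higher. Thus 3 of 10 members passed the test as higher, none as lower and 7 did not pass, beside 3.97% of identifiers that passed as higher and 3.88% as lower.

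By edgeR and by DESeq2, 0 of the 10 were past the fold threshold between FAK-kd and *FAK*-/- cells. Of all identifiers, 0.914% passed it as higher and 1.09% as lower. An unadjusted edgeR p under 0.05 was found for 5 of the 10. The share of all identifiers under that cut was not computed, here or for the lists below. The median log2 ratio of the 10 was 0.31. In 5 of the 10 all FAK-kd libraries were above all *FAK*-/- libraries, as in 12.8% of identifiers. *Tagln2* did not pass (log2 ratio 0.02, SE 0.07, 95% interval -0.14 to 0.17), nor did *Tpm2* (log2 ratio 0.19, SE 0.07, adjusted p = 0.12) or *Actg2* (log2 ratio 1.49, SE 0.50, adjusted p = 0.0925). The call of *Tpm1* was lost when only the 2 groups were fitted (adjusted p = 0.0752) and when 1 of 7 libraries was left out (adjusted p from 0.0516 to 0.0866): FAK-WT replicate 2 or 3, *FAK*-/- replicate 1 or 2, or any FAK-kd replicate.

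To set the members beside the rest of the SRF programme, 21 further SRF-MRTF target genes in the table were examined, together with SRF and its partners, TCF-type immediate-early genes and non-muscle relatives of the members. In FAK-WT against *FAK*-/- cells 12 of the 21 targets were lower, 3 were higher and 6 did not pass, beside 9.96% of all identifiers that were lower and 8.01% that were higher. Against FAK-kd cells 15 were lower, 1 was higher and 5 did not pass, beside 10.2% and 7.58%. Their median log2 ratios were -0.51 and -0.83, beside -0.28 and -0.80 for the 9 contractile members and 0 for all identifiers. Past the fold threshold were 4 lower genes and 1 higher gene against *FAK*-/- cells, beside 3.06% and 2.32% of identifiers, and 5 lower and 1 higher against FAK-kd cells, beside 2.89% and 2.37%. With DESeq2 the 5 lower genes against FAK-kd cells were 3. In FAK-kd over *FAK*-/- cells 7 were higher, beside 3.97% of identifiers, and 14 did not pass, with a median of 0.21.

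**Figure D3:**
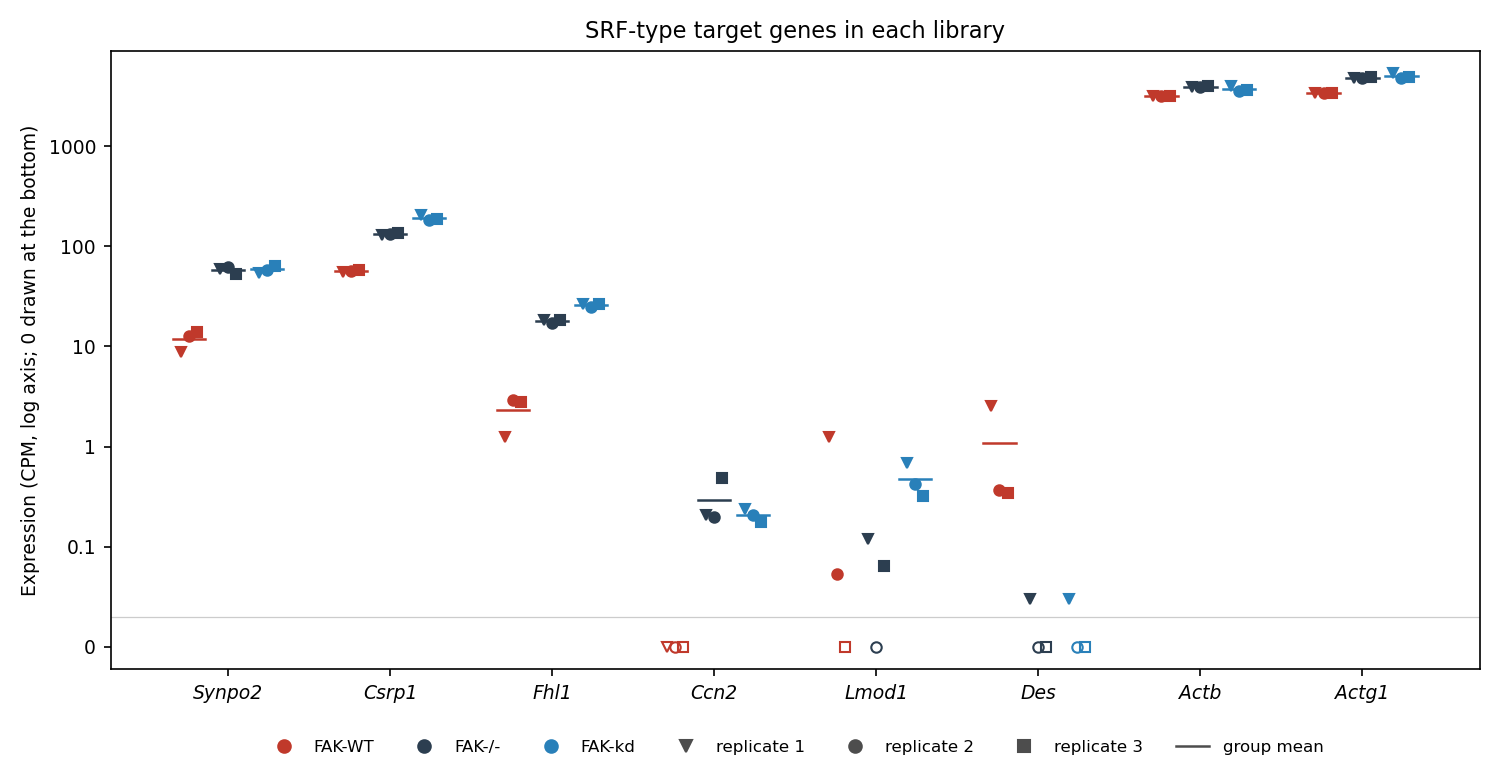
Level in every library of the 6 SRF-MRTF targets past the fold threshold in a FAK-WT comparison and of *Actb* and *Actg1*, as CPM on a log axis with 0 as open symbols at the bottom. Points are libraries, and bars are means of groups in which every library had counts. *Fhl1*, *Csrp1* and *Synpo2* lay lowest in FAK-WT cells, and *Des* was detected mainly there.

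*Fhl1*, a LIM-domain protein of muscle and other cells, was at 1.26, 2.93 and 2.80 CPM in FAK-WT cells, at 18.4, 17.1 and 18.3 CPM in *FAK*-/- cells and at 26.6, 25.0 and 26.5 CPM in FAK-kd cells. The value of FAK-WT replicate 1 came from 1 count. Its log2 ratio was -2.67 (SE 0.12, adjusted p = 9.0e-10) against *FAK*-/- and -3.20 (SE 0.12, adjusted p = 1.1e-10) against FAK-kd cells. Like *Acta2*, *Cnn2* and *Tpm1*, it was higher in FAK-kd than in *FAK*-/- cells (log2 ratio 0.54, adjusted p = 0.00169).

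*Csrp1*, a LIM protein bound to actin filaments, was at 55.4, 56.3 and 57.6 CPM in FAK-WT cells, at 131, 134 and 136 CPM in *FAK*-/- cells and at 204, 184 and 190 CPM in FAK-kd cells. The 3 groups did not overlap. Its log2 ratio was -1.24 (SE 0.07, adjusted p = 7.8e-09) against *FAK*-/- and -1.76 (SE 0.07, adjusted p = 2.0e-10) against FAK-kd cells.

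*Synpo2*, an actin-bundling protein of muscle, was at 8.81, 12.7 and 14.0 CPM in FAK-WT cells and between 53.0 and 63.2 CPM in the other 6 libraries. Its log2 ratio was -2.14 (SE 0.12, adjusted p = 4.3e-09) against *FAK*-/- and -2.17 (SE 0.12, adjusted p = 4.6e-09) against FAK-kd cells. FAK-kd and *FAK*-/- cells did not differ beyond their spread in this gene (log2 ratio 0.02, SE 0.10, 95% interval -0.19 to 0.23).

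Other targets rested on few counts. *Ccn2*, connective tissue growth factor, had 0 counts with FAK-WT against 27 pooled counts in *FAK*-/- cells and 21 with FAK-kd, at least 7.31-fold and 5.07-fold lower with 3 counts over the group as the floor. *Lmod1*, a leiomodin that nucleates actin filaments in smooth muscle, had 3 pooled counts with FAK-WT, 6 without FAK and 48 with FAK-kd. It passed the edgeR test against FAK-kd cells (adjusted p = 0.0392), although the libraries overlapped. FAK-WT replicate 1 was at 1.26 CPM, from 1 count, against 0.322 to 0.690 CPM with FAK-kd. *Des*, the muscle intermediate filament desmin, was higher with FAK-WT, with 28 pooled counts in FAK-WT cells and 1 in each of the other groups. The medians of the 21 targets were the same with *Ccn2* at its bound.

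The cytoplasmic actins, *Actb* and *Actg1*, were the most abundant of the targets, and both were lower in FAK-WT cells. *Actg1* was at 3391 to 3416 CPM in FAK-WT, 4851 to 4873 CPM in *FAK*-/- and 4833 to 5424 CPM in FAK-kd cells (log2 ratios -0.51, adjusted p = 1.2e-05, and -0.57, adjusted p = 4.3e-06). *Actb* differed less (log2 ratios -0.32, adjusted p = 0.00135, and -0.24, adjusted p = 0.0089). *Flna*, which crosslinks actin filaments, was lower than in FAK-kd cells only (log2 ratio -0.40, adjusted p = 0.000539), and its ratio to *FAK*-/- cells was -0.15 (adjusted p = 0.145). *Actb* and *Actg1* share 23.6% and 40.2% of their words with other genes.

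**Figure D4:**
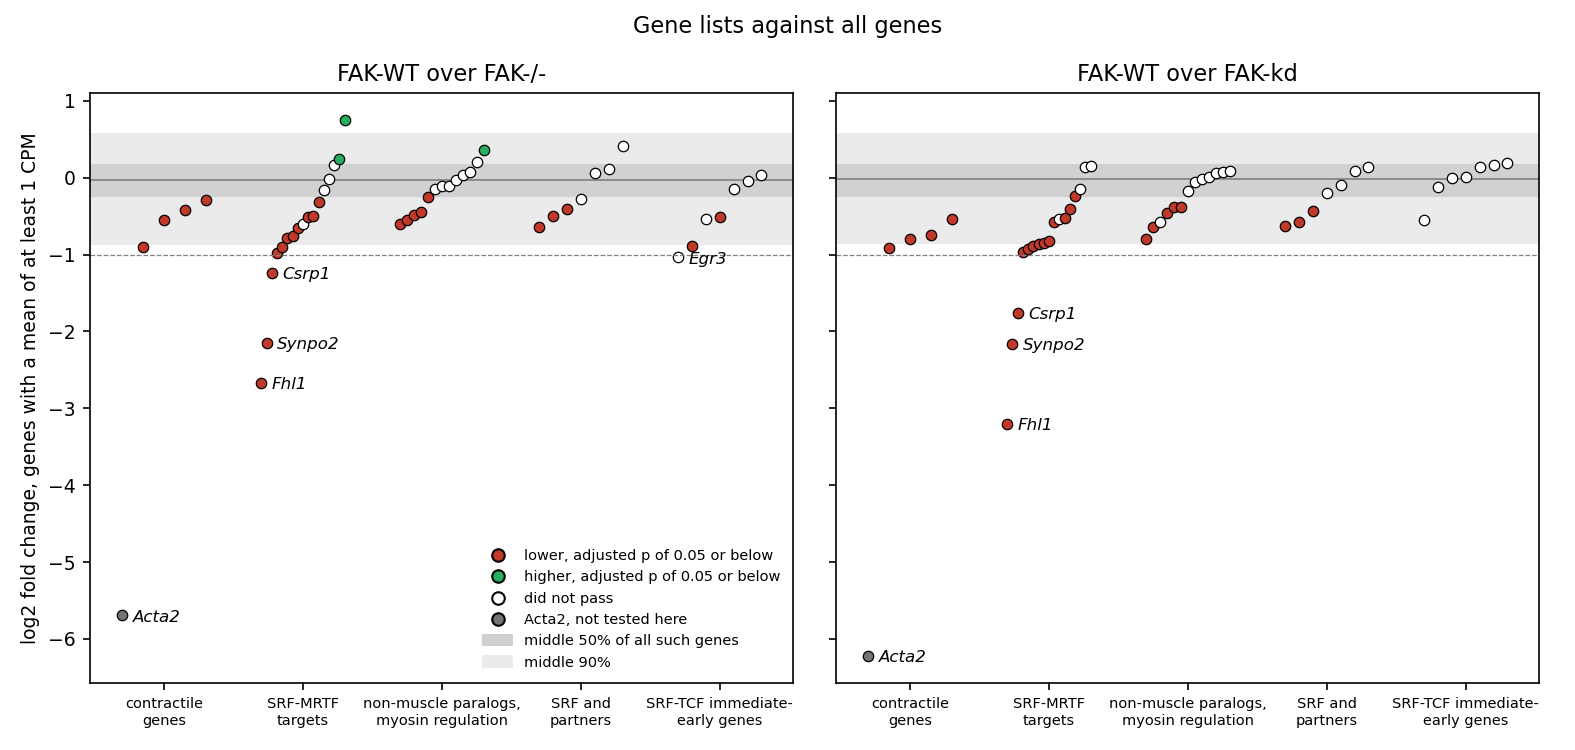
Log2 ratio of every listed gene with a mean of at least 1 CPM, by gene list, for FAK-WT over *FAK*-/- cells on the left and FAK-WT over FAK-kd cells on the right. Each point is 1 gene (red, lower; green, higher; white, did not pass; grey, *Acta2*), the bands hold the central 90% and 50% of all genes at that level with their median as a line, and the dashed line marks a log2 ratio of -1. *Acta2* lay at -5.69 and -6.22, far below the other contractile genes shown, while *Fhl1*, *Synpo2* and *Csrp1* lay lowest among the SRF-MRTF targets.

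Of the 8 genes of *Srf* and its partners, 3 were lower in both FAK-WT comparisons, beside 9.96% and 10.2% of identifiers. By edgeR and by DESeq2, 0 of the 8 were past the fold threshold in any comparison, with unadjusted edgeR p under 0.05 for 5 against *FAK*-/- cells, 3 against FAK-kd cells and 1 between FAK-kd and *FAK*-/- cells. *Srf* (log2 ratios -0.50, adjusted p = 0.00717, and -0.44, adjusted p = 0.0163), *Mrtfa* (-0.41, adjusted p = 0.00563, and -0.63, adjusted p = 0.000162) and the ternary complex factor *Elk3* (-0.64, adjusted p = 2.1e-06, and -0.58, adjusted p = 5.7e-06) were lower with FAK-WT than in either other line. *Srf* was at 178 CPM in *FAK*-/- replicate 3 against 124 and 128 CPM in the other 2 *FAK*-/- replicates. *Myocd*, the muscle-restricted partner myocardin, was at most 0.13 CPM in any library.

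Of the 8 TCF-type immediate-early genes, 0 were past the fold threshold by edgeR or DESeq2 in any comparison. Unadjusted edgeR p was under 0.05 for 2 against *FAK*-/- cells, 1 against FAK-kd cells and 4 between FAK-kd and *FAK*-/- cells. At an adjusted p of 0.05 or below, 2 were lower against *FAK*-/- and 0 against FAK-kd cells, beside 9.96% and 10.2% of identifiers. Between FAK-kd and *FAK*-/- cells 1 was lower, beside 3.88%, and none was higher in any comparison. *Egr1* had log2 ratios of 0.03 (SE 0.14) and 0.13 (SE 0.14) in the FAK-WT comparisons, and *Junb* of -0.15 (SE 0.15) and 0.19 (SE 0.15). *Ier2* was lower than in *FAK*-/- cells (log2 ratio -0.51, SE 0.15, adjusted p = 0.0302) and had a ratio of -0.12 (adjusted p = 0.633) to FAK-kd cells. It was at 37.1, 37.1 and 57.1 CPM in *FAK*-/- replicates 1, 2 and 3, and at 26.4 to 31.7 CPM in FAK-WT cells. *Fosb*, named after its values were seen, was lower in FAK-WT (log2 ratio -0.88, adjusted p = 0.00821) and in FAK-kd cells (log2 ratio -0.89, adjusted p = 0.00941) than in *FAK*-/- cells.

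Among the 15 non-muscle relatives and regulators of myosin in the table, 0 were past the fold threshold by edgeR or DESeq2, with unadjusted edgeR p under 0.05 for 8, 7 and 2 in the same order. Against *FAK*-/- cells 5 were lower and 1 higher, beside 9.96% and 8.01% of identifiers, and against FAK-kd cells 5 were lower, beside 10.2%. *Myh9*, the heavy chain of non-muscle myosin IIA, was lower in FAK-WT cells (log2 ratios -0.55, adjusted p = 0.000445, and -0.80, adjusted p = 1.4e-05), as was *Tpm4*, a short tropomyosin (-0.25, adjusted p = 0.0128, and -0.39, adjusted p = 0.000537). *Tpm3* did not pass (log2 ratios -0.03, SE 0.06, and -0.02, SE 0.06).

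Markers of cells that normally express these genes were measured beside them. The summed level of the 6 smooth muscle cell markers was 66.8 to 95.7 CPM in FAK-WT, 59.6 to 74.5 CPM in *FAK*-/- and 66.5 to 67.3 CPM in FAK-kd cells, nearly all of it *Smtn*, with only 1 of the 6 averaging at least 1 CPM. The 4 pericyte markers in the table summed to 76.8 to 100.7, 91.3 to 135 and 112 to 162 CPM in the same order, and the 7 fibroblast markers, led by *Col3a1*, to 1605 to 1701, 1345 to 1630.5 and 1409 to 1988 CPM. FAK-WT and *FAK*-/- ranges overlapped in all 3 lists, whereas those of FAK-WT and FAK-kd cells did not overlap for the pericyte markers. The pericyte sum was nearly all *Cspg4*, with only 1 of the 4 averaging at least 1 CPM, so its ranges describe that gene. Single fibroblast markers moved apart from their sum. *Pdgfrb*, a receptor for platelet-derived growth factor, was at 3.78 to 6.87 CPM in FAK-WT, 25.1 to 26.2 CPM in *FAK*-/- and 25.0 to 38.9 CPM in FAK-kd cells (log2 ratios -2.04, adjusted p = 4.3e-07, and -2.40, adjusted p = 7.3e-08). *Pdgfra*, the other such receptor, was also lower in FAK-WT cells (log2 ratios -1.44, adjusted p = 1.3e-05, and -1.11, adjusted p = 0.000157). *Dcn*, decorin, was higher than in *FAK*-/- cells (log2 ratio 2.24, adjusted p = 0.0426, 32 pooled counts against 8), and *Col1a2*, a collagen I chain, was higher in FAK-kd than in *FAK*-/- cells (log2 ratio 1.29, adjusted p = 0.00469). The endothelial markers summed to 1.26 to 2.05 CPM in FAK-WT, 0.360 to 0.513 CPM in *FAK*-/- and 0.240 to 0.351 CPM in FAK-kd cells. In FAK-WT cells most of this was *Cdh5*, VE-cadherin, which was higher there (log2 ratios 3.42, adjusted p = 0.000272, and 6.04, adjusted p = 1.2e-05), with 118 pooled counts against 13 and 2. The leukocyte list summed to at most 3.36 CPM, and none of the 4 skeletal muscle markers was among the identifiers used. The part of such markers in the result was not tested.

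By the smallest root mean square difference of centred log2 CPM over the 9 libraries, the genes most like *Acta2* among 10911 with a mean of at least 1 CPM were *Bhlhe22* (0.824), *Itgb3* (0.879), *Wnt7b* (1.06), *Ripk3* (1.12) and *Trim44* (1.23). None of them is on the lists above. The order of these 5 changed with the prior count. They were picked for likeness to *Acta2* in these same libraries, so a shared pattern follows from the choice. As a description, all 5 were near 0 in FAK-WT cells, and 4 of them were highest in FAK-kd cells. *Itgb3*, the beta3 integrin subunit, averaged 0.275 ± 0.247 CPM in FAK-WT, 11.0 ± 1.01 CPM in *FAK*-/- and 18.4 ± 2.22 CPM in FAK-kd cells. Of the members, *Tagln2* ranked 880, *Tpm2* 1314, *Cnn2* 1345 and *Tpm1* 1989 in likeness to *Acta2*. The measure includes the size of the change, so a gene with a small decrease ranks low even where its groups lie in the same order. The remaining members, among them *Myl9* with a mean of 0.479 CPM, were below 1 CPM and were not ranked.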

How the data were processed

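Paired-end RNA-seq of 9 SCC libraries, made with the TruSeq RNA Library Prep Kit v2, was analysed. The authors pseudoaligned reads with kallisto 0.43.1 and summarized them to genes with tximport, and the deposited values are expected counts (estimated counts), rounded to whole numbers, not scaled to library size and without identifiers at zero throughout. The build is GRCm38 (mm10), and the transcriptome release is not given in the sources used here. The counts were used as deposited. Groups and replicate numbers came from the sample titles.

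edgeR 4.0.16 in R 4.3.3 was fitted to all 19044 identifiers and 9 libraries (TMM, estimateDisp, glmQLFit, glmQLFTest, cell line as the only factor), with Benjamini–Hochberg adjustment. SE was the log2 ratio divided by the square root of F. Symbols and positions came from GENCODE for mm10 (18881 identifiers matched), and promoter windows from RefSeq. Shared 31-base words stand in for reads that genes share. Where both groups had at most 3 pooled counts no fold was given, and intervals cover counting error only. The steps were tested on simulated data in which only more abundant genes were changed, so recovery of changes in genes with few counts was not covered.

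The members and gene lists were chosen with earlier results of these data known. Genes named are the members, the genes of each list past the threshold or among its 3 most abundant, *Ptk2*, cell type markers and the 5 genes most like *Acta2*; *Fosb*, *Pdlim5* and *Gm48529* were named after their values were seen. Alternatives were DESeq2 1.42.0, its size factors in edgeR, library size only, filterByExpr, 2-group fits, glmTreat, a replicate block and leaving out each library. GC-corrected offsets, and leaving out FAK-WT replicate 1 with *FAK*-/- replicate 3, were added after the data were seen.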

Additional observations from a re-analysis of the deposited data

Results flagged for a closer look

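In 5 listed genes other than *Acta2*, FAK-WT cells were lower and FAK-kd cells higher than *FAK*-/- cells, with an adjusted p of 0.05 or below by edgeR's quasi-likelihood test on both sides and for FAK-WT against FAK-kd. Genes such as *Tpm2*, whose groups lay in the same order but whose FAK-kd to *FAK*-/- ratio did not pass, are not among them. Both sides are measured against the same *FAK*-/- libraries. Of all identifiers, 9.96% passed as lower in FAK-WT and 3.97% as higher in FAK-kd than in *FAK*-/- cells. The share that passed on both sides was not computed, so the count of 5 is a description. *Cnn2* was lower in FAK-WT (log2 ratio -0.41) and higher in FAK-kd (0.38) than in *FAK*-/- cells, and the ratio of FAK-WT to FAK-kd cells was -0.80 (adjusted p = 6.3e-07). *Tpm1* had ratios of -0.28 and 0.25 to *FAK*-/- cells and of -0.54 between FAK-WT and FAK-kd cells (adjusted p = 2.6e-05), and its ratio of FAK-kd to *FAK*-/- cells lost its call in several alternatives. Among the other SRF-MRTF targets the same held for *Fhl1*, with -3.20 between FAK-WT and FAK-kd cells (adjusted p = 1.1e-10), *Csrp1*, with -1.76 (adjusted p = 2.0e-10), and *Pdlim5*, a PDZ and LIM protein, with -0.83 (adjusted p = 6.9e-06). *Acta2* had the same order of groups and is left out of this count because it was chosen for its level in FAK-WT cells.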

How the results depend on the processing

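Of the 9 members other than *Acta2*, 1 was past the fold threshold and 5 passed the adjusted p in both FAK-WT comparisons under every alternative run, apart from glmTreat, which tests against a log2 ratio of 1 and under which *Tagln2*, *Cnn2*, *Tpm1* and *Tpm2* lost their calls. *Acta2* ranged from -5.73 to -5.63 against *FAK*-/- and from -6.26 to -6.14 against FAK-kd cells. Between FAK-kd and *FAK*-/- cells 2 to 4 members passed. *Tpm2* passed there with GC-corrected offsets (adjusted p = 0.0359) and without FAK-WT replicate 1 and *FAK*-/- replicate 3 (adjusted p = 0.0261), and glmTreat called none.

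Against FAK-kd cells, SRF-MRTF targets past the fold threshold in FAK-WT cells, 6 in either direction, were 4 with DESeq2 (3 lower) and 5 with filterByExpr, the replicate block and glmTreat, and ranged from 5 to 7 when each library was left out.

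Between FAK-kd and *FAK*-/- cells the count of SRF-MRTF targets past the fold threshold rose from 0 to 1 with filterByExpr, with GC-corrected offsets, with only the 2 groups fitted and without both of those libraries, and ranged from 0 to 1 when each library was left out. The count passing the adjusted p, 7, ranged from 4 to 9 on leaving out a library, with 4 without FAK-kd replicate 2 or 3, and was 10 without both of those libraries. Immediate-early genes past the threshold ranged from 0 to 1 against *FAK*-/- cells for both FAK-WT (1 without FAK-WT replicate 2) and FAK-kd (1 without FAK-kd replicate 1). Non-muscle relatives passing the adjusted p between FAK-kd and *FAK*-/- cells went from 0 to 1 with GC-corrected offsets, to 3 without both libraries, and from 0 to 2 when each library was left out (2 without *FAK*-/- replicate 3, 1 without FAK-kd replicate 1). The cause was not tested.

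The replicate numbers did not pair the samples, with a mean r across genes of -0.00699 between deviations of libraries of the same number and 0.00317 between different numbers. With the replicate block, 5 members passed in each FAK-WT comparison and 3 between FAK-kd and *FAK*-/- cells. At 1.26 CPM for 1 count, FAK-WT replicate 1 limits all genes near or below that level, among them *Acta2* in FAK-WT cells, *Myl9*, *Tagln*, *Actg2*, *Ccn2*, *Lmod1* and *Des*.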
